A study of Mus musculus with 2 samples.

Results

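Broad KMT2D peaks are the widest intervals of a ChIP-seq peak list of wild-type HT22 cells, chosen by a measured value, the width of the called interval, at 600 bp or more. HT22 is an immortalised mouse hippocampal cell line. There were 258 such peaks among the 3706 on chromosomes 1 to 19, X and Y (6.96%), and the other 3448 are called narrower here. The list rests on 1 library from KMT2D immunoprecipitation and 1 library of input chromatin, both from wild-type cells labelled as a wild-type clone and taken at 70% confluency. With 1 library of each kind no difference below has a replicate check or a test, and the intervals cover counting error only and treat peaks as independent. Whether another wild-type clone or another precipitation would give the same wide peaks was not tested.

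KMT2D is a large histone methyltransferase that adds methyl groups to lysine 4 of histone H3, best known for monomethylation at enhancers, where it acts in a complex with the demethylase KDM6A. Enhancers lie at variable distances from the genes they control, inside or outside genes, while promoters lie at gene starts. Wide stretches of H3K4 methylation have been described at genes that matter for a cell's identity.

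The sequences just upstream of 4 annotated gene starts are examples of DNA that lay under broad peaks at promoters. They are the 250 bases before the start, from the RefSeq promoter table of GRCm38.p6 (the build of mm10), for the 4 widest peaks over a promoter window whose bases before the start lie outside every annotated gene. Of 32 broad peaks over a promoter window, 10 had such a one. Capitals mark matches, on either strand, to TGACTCA (AP-1), TGACGTCA (CRE), GGAATG (TEAD), CACGTG (E-box), GGGCGG (SP and KLF factors), CCGGAA (ETS), CCAAT (NF-Y) and the CArG box of SRF, and matches that overlap run together. Cdt1, which licenses replication origins, lies at chr8:122567765-122568014 on the plus strand, and Jak2, a tyrosine kinase gene of cytokine signalling, at chr19:29251553-29251802 on the plus strand. Arpc4, a subunit gene of the actin-nucleating Arp2/3 complex, lies at chr6:113377863-113378112 on the plus strand, and the ETS factor gene Etv5 at chr16:22439571-22439820 on the minus strand.
Cdt1: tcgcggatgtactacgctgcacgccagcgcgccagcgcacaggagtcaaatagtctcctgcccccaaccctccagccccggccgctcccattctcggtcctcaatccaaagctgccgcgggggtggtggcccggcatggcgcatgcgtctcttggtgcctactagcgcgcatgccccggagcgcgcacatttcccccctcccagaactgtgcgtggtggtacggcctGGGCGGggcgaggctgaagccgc
Jak2: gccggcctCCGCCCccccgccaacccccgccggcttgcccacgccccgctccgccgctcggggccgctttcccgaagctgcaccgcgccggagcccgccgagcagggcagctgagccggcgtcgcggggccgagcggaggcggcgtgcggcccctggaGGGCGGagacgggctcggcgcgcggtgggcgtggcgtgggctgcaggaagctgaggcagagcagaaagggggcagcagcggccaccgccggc
Arpc4: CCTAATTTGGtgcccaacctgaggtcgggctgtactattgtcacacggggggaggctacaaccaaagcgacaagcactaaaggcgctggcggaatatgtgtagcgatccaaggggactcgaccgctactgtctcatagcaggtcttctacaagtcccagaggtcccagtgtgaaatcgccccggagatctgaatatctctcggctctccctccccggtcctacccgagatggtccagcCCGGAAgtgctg
Etv5: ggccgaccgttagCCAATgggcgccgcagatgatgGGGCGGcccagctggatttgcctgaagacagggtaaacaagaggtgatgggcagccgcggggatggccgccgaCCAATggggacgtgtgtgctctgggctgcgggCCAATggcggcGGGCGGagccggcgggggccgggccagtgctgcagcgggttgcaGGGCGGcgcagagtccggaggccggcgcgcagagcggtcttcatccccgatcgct
Cdt1 held 1 SP/KLF match and Jak2 2, Arpc4 1 ETS match and 1 CArG box, and Etv5 3 SP/KLF and 3 NF-Y matches. The share of G and C was 68.4% in Cdt1, 80.8% in Jak2, 57.2% in Arpc4 and 71.2% in Etv5. The peaks of Cdt1, Jak2 and Arpc4 covered these bases whole, and that of Etv5 all but the outermost. These peaks had folds of 2.13 (Cdt1), 3.47 (Jak2), 3.90 (Arpc4) and 3.40 (Etv5), below the median of 4.73 for broad peaks at gene ends. Which factors bind there was not measured.

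Widths ran from 600 to 2368 bp, with a median of 720 bp (interquartile range 653 to 839), against a median of 287 bp (239 to 373) for the narrower peaks. Only 27 peaks reached 1000 bp. Width is drawn from the same ChIP pileup as the fold and the p-value, so the values of strength are a description of how the peaks were chosen and support nothing else. The fold is the authors' own ratio, ChIP over background where the peak is highest. Pileup is the ChIP fragments at the summit, and background the fragments they were set against, as the deposited fold and p-value imply. Broad peaks had a median pileup of 44 fragments (33 to 64) against 30 (23 to 40), and a median fold of 5.26 (3.79 to 7.02) against 4.41 (3.51 to 5.72). Across the 3706 peaks, which share the same libraries, Spearman's rho was 0.35 between width and pileup and 0.21 between width and fold. The 10 peaks just inside the threshold had a median fold of 6.90 and a median pileup of 43, and the 6 just outside it 5.53 and 38. The host or nearest genes of the peaks just inside the threshold were Cdk6, Il34, Pola2, Vim, Pllp, Klhl30, Cbx7, Dnm2, Faim2 and Cd300e. Those of the peaks just outside were H3f3a, Irf2bp2, Tulp4, Dlgap1, Cuedc1 and Polr1a. The peaks named for Cdk6, Pllp, Cd300e and Irf2bp2 were intergenic.

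**Figure D1:**
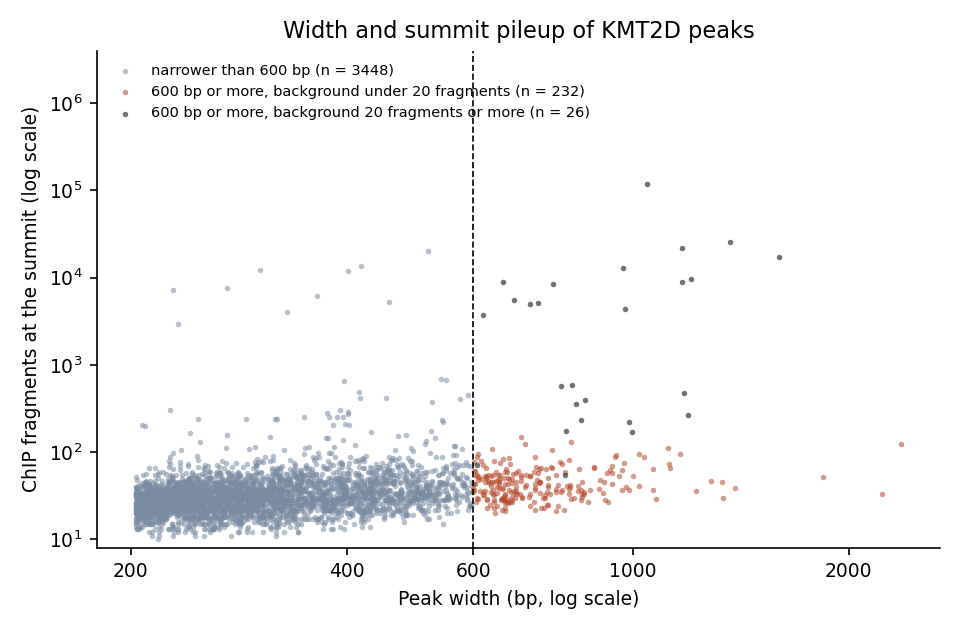
Each point is 1 of the 3706 peaks on chromosomes 1 to 19, X and Y, placed by its width (bp, log scale) and its ChIP fragments at the summit (log scale), with the 600 bp threshold dashed. Broad peaks with a background under 20 fragments (232) have pileups of 20 to 151, and the 26 with a higher background (black) reach far above them.

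A share of the broad peaks lay where the background was high. In 26 of 258 (10.1%, Wilson 95% interval 6.97 to 14.4) the background at the summit was 20 fragments or more, against 76 of 3448 narrower peaks (2.2%, 1.76 to 2.75). Their folds ran from 1.19 to 7.52, and their median fold was 1.68. Of these, 12 lay side by side at the start of chromosome 9, from position 3000321 to 3038175, with folds of 1.19 to 1.99 over backgrounds of 2222 to 16207 fragments and no protein-coding gene within 100 kb. Others were a peak on chromosome 2 from 98666411 to 98667457, with 118678 fragments over a background of 54170, and 1 on chromosome 14 from 19416937 to 19418301, with a fold of 1.31. Klf10, whose broad peak had a background of 21.6, and Ctps2 on the X chromosome (33.7) were the 2 genes with such a peak at an end. Shares of position are therefore also given without peaks of such a background where this turned a direction or moved the interval of a difference across 0.

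Where broad peaks lie relative to genes was measured from the summit, against protein-coding genes. It was counted as at a gene end when it lay within 2 kb of the start or the finish of one. Broad peaks were spread over gene ends, gene bodies and intergenic sequence in much the same shares as narrower peaks. Of the 258, 63 were at a gene end (24.4%, Wilson 95% interval 19.6 to 30.0), against 27.1% of all peaks and 27.3% of the narrower ones (25.9 to 28.9). The difference, broad minus narrower, was -2.93 percentage points (Newcombe 95% interval -8.00 to 2.85), and without the peaks of high background -1.23 points (-6.69 to 4.97). Gene bodies held 82 broad peaks, 31.8% against 32.8% (difference -1.02 points, -6.63 to 5.09), and without high background 33.6% against 33.2%, on the other side of 0 (0.38 points, -5.61 to 6.87). The remaining 113 were intergenic, 43.8% against 39.8% (3.95 points, -2.19 to 10.3), and 20 of these had a background of 20 fragments or more. Without high background the difference was 0.85 points (-5.47 to 7.47). These intervals all include 0, which does not show that the shares are alike.

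The direction at gene ends changed with the strength of the peaks, and its size with the width threshold. Among peaks whose -log10 q reached the median of the list, broad peaks were at gene ends in 20.5% and narrower ones in 18%. Among peaks whose fold reached the 75th percentile the shares were 17.7% and 13.6%. Both differences, 2.48 points (-2.84 to 8.78) and 4.12 points (-2.70 to 13.2), were on the other side of 0 from that of all peaks, with intervals that include 0. By width, the 177 broad peaks under 800 bp were at gene ends in 27.7% (21.6 to 34.7), and the 222 narrower peaks of 500 bp or more in 28.4% (22.9 to 34.6). The 81 peaks of 800 bp or more were there in 17.3% (10.6 to 26.9), or 20.6% (12.5 to 32.2) of the 63 with a background under 20. Against all peaks under 800 bp the difference was -10.1 points (-16.9 to -0.31), with the peaks of high background included. This difference was not computed without them. With a background under 20, the bins of width under 800 bp had shares of 24.4% to 29.8%. Within bands of pileup, the 142 broad peaks with 42 or more fragments were at gene ends in 20.4% (14.6 to 27.8), against 22.8% of the narrower peaks in that band, and with 31 to 41 fragments in 26.9% (17.7 to 38.5) against 27.5% (24.6 to 30.5). With 25 to 30 fragments the shares were 25.7% (14.2 to 42.1) of 35 broad peaks and 31.9% of the narrower ones. In the lowest band, with up to 24 fragments, the direction was the other way, with 7 of 14 broad peaks (50%, 26.8 to 73.2) against 27.2%.

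**Figure D2:**
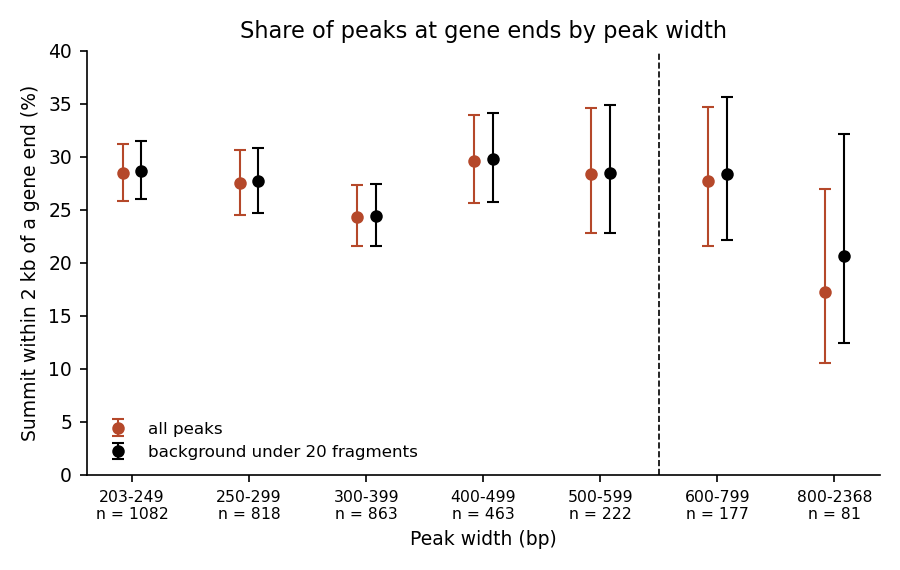
Share of peaks with the summit within 2 kb of a protein-coding gene end (vertical axis, %) in 7 bins of peak width (bp), for all peaks and for those with a background under 20 fragments, with Wilson 95% intervals and the number of peaks in each bin. The share stays between 24.3% and 29.6% in the 6 bins under 800 bp and is 17.3% in the 81 widest peaks, whose interval reaches 26.9%.

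By distance to the nearest gene end, with summits inside genes counted too, the broad peaks had a larger share at 2 to 20 kb. A distance of 2 to 20 kb to the nearest gene end was found for 104 broad peaks, 40.3% (34.5 to 46.4), against 34.0% (32.5 to 35.6) of the narrower ones. The difference was 6.26 points (0.24 to 12.5), and 9.49 points (3.06 to 16.1) among peaks with a background under 20. It stayed above 0 under the 7 other choices of peaks and width tried, but the interval included 0 under 5 of them, with differences from 3.46 to 8.88 points. Close to genes, within 500 bp of an end, broad peaks were 12.8% (9.25 to 17.4) against 17.3% (16.0 to 18.6), a difference of -4.47 points (-8.23 to 0.32). At 20 to 100 kb they were 22.1% against 28.7% (-6.65 points, -11.5 to -0.998), and without high background 23.3% against 28.9% (-5.61 points, -10.8 to 0.43). Beyond 100 kb lay 34 broad peaks, 18 of them with a high background: the shares were 13.2% against 9.86%, and 6.90% against 9.55% without those of high background, so the direction turned. The interval covered a gene end in 10.5% of broad and 7.54% of narrower peaks (2.92 points, -0.38 to 7.34), a share that width itself bears on. Without high background the difference was 3.99 points (0.35 to 8.83). In all, 25 shares of position were compared between broad and narrower peaks, so that a few intervals that just exclude 0 carry little weight.

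**Figure D3:**
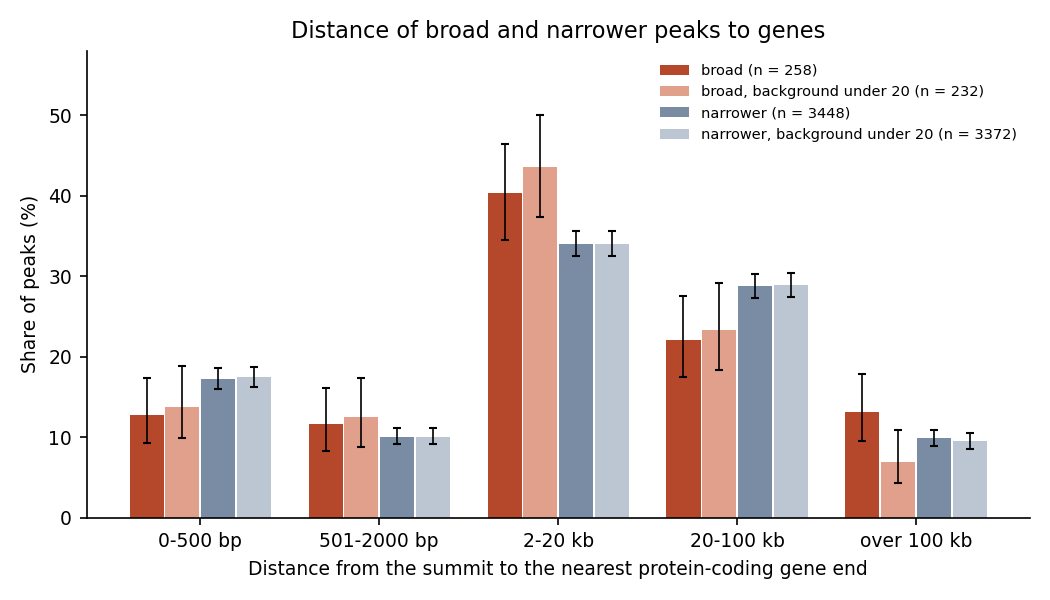
Share of peaks (vertical axis, %) by distance from the summit to the nearest protein-coding gene end, for 258 broad and 3448 narrower peaks, each also without peaks of a background of 20 fragments or more, with Wilson 95% intervals. Broad peaks are 40.3% at 2 to 20 kb against 34.0% for narrower ones, and their excess over 100 kb is gone in the bars without high background.

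Strand was known for 17492 of 21774 protein-coding genes, from the RefSeq promoter table. At the gene ends with a known strand, broad peaks were nearly all at the start of the gene: 41 of 45 (91.1%, 79.3 to 96.5), against 660 of 766 (86.2%, 83.5 to 88.4) for narrower peaks. Their summits sat slightly upstream, at a median of -38 bp from the start (interquartile range -229 to 274), where those of narrower peaks sat at 98.5 bp downstream (-141 to 411). Downstream of the start were 19 of the 41 broad summits, 46.3% (32.1 to 61.3), and 61.5% (57.7 to 65.2) of the narrower ones, a difference of -15.2 points (-29.9 to 0.21). Without high background it was -16.1 points (-30.9 to -0.50). At all 63 gene ends, 44.4% (32.8 to 56.7) of broad summits were inside the gene, against 59.1% (55.9 to 62.2), a difference of -14.6 points (-26.6 to -1.98).

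**Figure D4:**
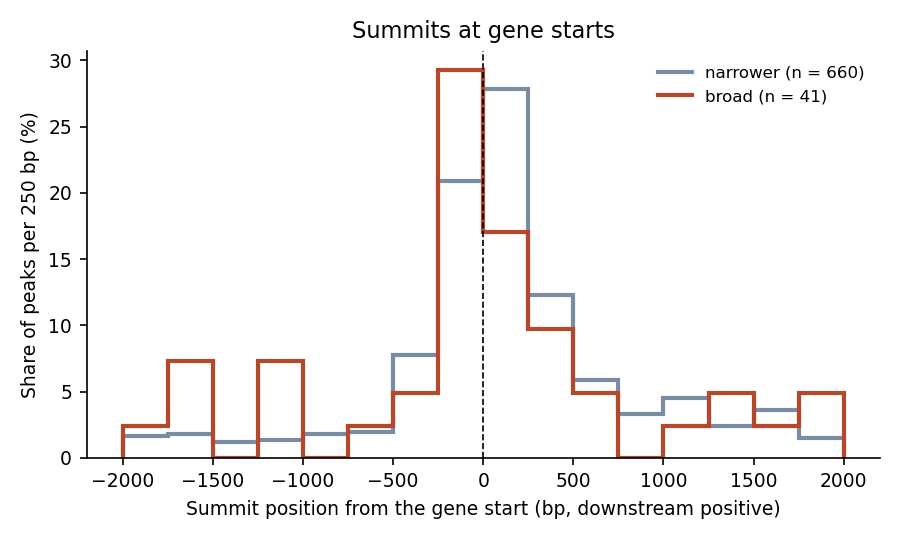
Position of the summit relative to the gene start (bp, downstream positive) for the 41 broad and 660 narrower peaks at starts of genes with known strand, as the share of peaks per 250 bp (vertical axis, %). The broad peaks are highest just upstream of the start and the narrower ones just downstream, with medians of -38 and 98.5 bp.

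The 20 widest peaks at gene ends, 751 to 2227 bp wide, belonged to genes of varied function, and 8 of the 20 intervals covered the gene end. The widest by far lay inside Tsc22d2, a member of the TSC22 domain family, from 58415093 to 58417319 on chromosome 3. It was 2227 bp wide but weak, with 33 fragments and a fold of 3.23 (95% Poisson interval 2.26 to 4.5), and its summit lay 66 bp from one edge of the peak. Next came Gm34296, a predicted protein-coding gene, with 1330 bp and a fold of 6.27. The third was Bhlhe40, a transcriptional repressor of the circadian clock and of the oxygen response, with 1022 bp and a fold of 4.35 (3.15 to 5.87), 1058 bp outside the gene. Susd1, which encodes a sushi domain protein, had its peak of 1000 bp at the finish of the gene, 124747 bp from its start. Klf10, a Krüppel-like factor induced by TGF-beta, had 999 bp and 169 fragments, the highest pileup of the 63, over the deep background given above.

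Genes of adhesion and the actin cytoskeleton stood beside chromatin and signalling genes in that group. Zyx encodes the focal adhesion protein zyxin, and its peak of 978 bp (fold 3.79, 2.73 to 5.12) lay inside the gene with the summit 274 bp from the start. Arpc4 had a peak of 763 bp (fold 3.90) across the start printed above, and Rhoq, a small GTPase, one of 924 bp with the summit 165 bp upstream. The Rhoq summit lay within another protein-coding gene, LOC115488765. Psip1 encodes the chromatin tether LEDGF, which binds the KMT2A-menin complex, and its peak spanned 972 bp with a fold of 5.12 (4.04 to 6.4). Kmt2d itself had 751 bp, 1882 bp downstream of its start, the narrowest of the 20. Rnf44, a RING finger gene, had the highest fold of the 20, 10.1 (7.86 to 12.8), with 884 bp centred near the start. At the other end, Cdt1 had a fold of 2.13 (1.52 to 2.91) over a background of 17.3 fragments. Cytokine signalling was represented by Jak2 (803 bp, fold 3.47) and Clcf1 (842 bp, 6.42), and transcriptional control by the EGR corepressor gene Nab2 (910 bp, 2.86), the SMAD corepressor gene Skil (756 bp, 4.24), Etv5 (752 bp, 3.40) and the tendon factor gene Scx (958 bp, 6.15). The Scx summit lay nearer to Bop1, a ribosome biogenesis gene, whose interval contains it. Those of Bhlhe40, Nab2 and Clcf1 lay within the lncRNA genes 0610040F04Rik, 1700012D01Rik and LOC102631992. Hnrnpu, an RNA-binding protein gene, had 760 bp at 1692 bp inside, and the summit of the peak beside Gm10277 (757 bp) lay within Myo18a.

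**Figure D5:**
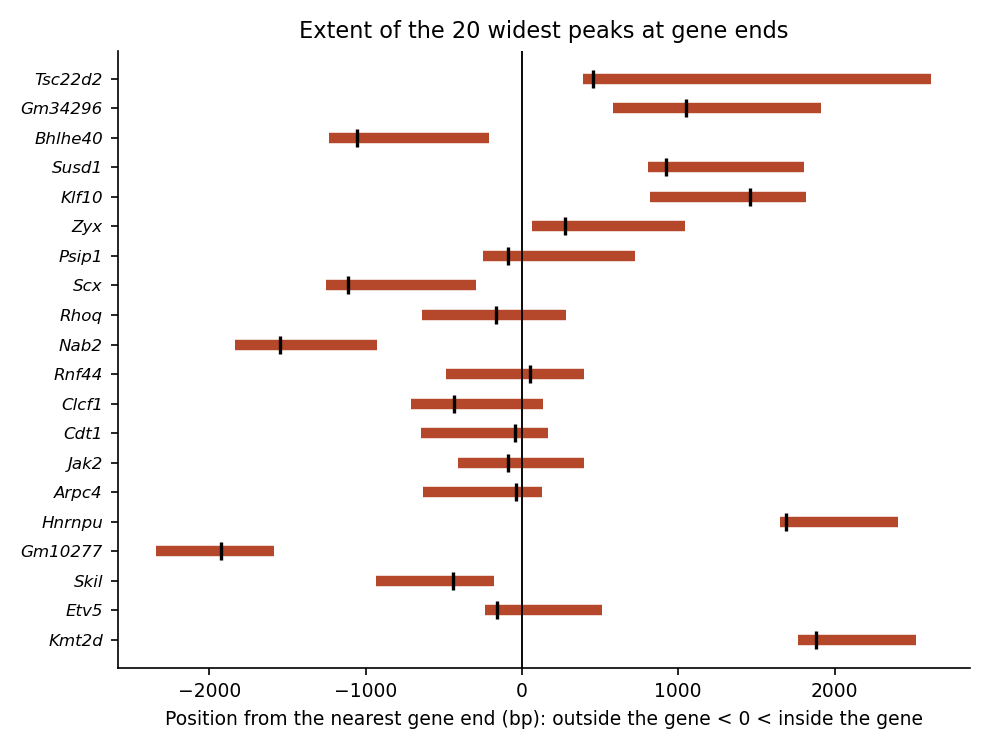
Extent of the 20 widest peaks at gene ends relative to the nearest end of the named gene (horizontal axis, bp; positions inside the gene are positive), with the summit as a black tick. Bars cross 0 in 8 of the 20, and the Tsc22d2 peak extends furthest, with its summit close to its outer edge.

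Away from gene ends the widest peak of all lay in Cenpo, a kinetochore gene, from 4219375 to 4221742 on chromosome 12. It was 2368 bp wide, with 125 fragments over 16.0 and a fold of 7.41 (6.18 to 8.82), 12940 bp into the gene. Cic, which encodes capicua, a repressor of MAP kinase target genes, held a peak of 1843 bp with a fold of 9.19 (6.91 to 12), 12785 bp from its start. Klf9, a Krüppel-like factor gene induced by glucocorticoids, had a peak of 1387 bp 6183 bp upstream (fold 5.34, 3.84 to 7.26), with the summit within the lncRNA gene 2410080I02Rik. Beside Chd2, a chromatin remodeller gene, a peak of 1338 bp lay 16109 bp outside, with the summit within the lncRNA gene Chaserr. The lncRNA gene C330024C12Rik, 17536 bp away, was nearest to a peak of 1284 bp 37033 bp from Socs5, a cytokine signalling suppressor. Jade1, a scaffold of a histone acetyltransferase complex, held 1227 bp over an annotated start inside the gene (fold 3.38). The other 4 of these 10 had high backgrounds: 2 at the start of chromosome 9, 1 on chromosome 14 and 1 on chromosome 13. The last lay 36071 bp from Zfp825, within the pseudogene Gm20590, with a fold of 2.11 over 126 fragments.

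The 5 broad peaks of highest fold were all intergenic. They lay 9549 bp upstream of Ankrd1 (821 bp, fold 16.6), a cardiac ankyrin repeat gene and target of YAP, and 3477 bp upstream of Dot1l (698 bp, 16.5), the H3K79 methyltransferase gene. The next were 22712 bp from Fam91a1 (709 bp, fold 15.3, 12.7 to 18.2), a vesicle tethering gene, 10991 bp from Ccdc34 (740 bp, 13.9, 10.7 to 17.7) and 14477 bp from Ggta1, an alpha-galactosyltransferase gene (662 bp, 13.8, 10.4 to 18.1). Over all broad peaks the median fold was 4.73 at gene ends and 5.41 in gene bodies, and 5.39 between genes (5.74 there with a background under 20). Medians by place were not computed for narrower peaks. Their share at gene ends was also lower at high fold, 13.6% at or above the 75th percentile against 27.3% of all narrower peaks.

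The summits of gene-body peaks lie, by definition, more than 2 kb from any gene end, which bears on how many can overlap a promoter. Of the broad ones, 3 of 82 (3.66%, 1.25 to 10.2) overlapped a promoter window of 300 bp in the table, which covers 250 bp before and 50 bp after a start, against 4.33% (3.29 to 5.68) of the narrower gene-body peaks. Of those in genes with known strand, 35 of 66 (53.0%, 41.2 to 64.6) were nearer to the start than to the finish, against 53.5%. Without high background the direction turned, with 56.5% against 53.8% (2.66 points, -10.1 to 14.7). The host genes of these 66 broad peaks were shorter, with a median length of 58602 bp (interquartile range 29695 to 120402) against 95770 bp (42999 to 195896). Broad summits lay a median of 23940 bp from the start against 36861 bp. As a share of the gene's length these positions were 49.0% and 47.0%. A summit within 20 kb downstream of the start was found in 45.5% (34.0 to 57.4) against 35.2% (32.2 to 38.4), a difference of 10.2 points (-1.62 to 22.6). Without high background it was 13.1 points (0.73 to 25.7).

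Broad peaks had a close neighbour more often than narrower ones. Another summit, of a peak of any width, lay within 10 kb for 111 of 258 (43.0%, 37.1 to 49.1), against 29.1% (27.6 to 30.6) of narrower peaks. The difference of 14.0 points (7.87 to 20.2) was 9.27 points (3.09 to 15.8) among peaks with a background under 20. Peaks of high background still counted as neighbours there. With these, and so the chromosome 9 group, left out as neighbours too, it was 8.90 points (2.74 to 15.4). Among peaks whose fold reached the 75th percentile the direction turned, with 14.6% against 16.4% (-1.86 points, -8.15 to 6.88). Only peaks of such a fold counted as neighbours there, so this is not the same measure. Neighbouring peaks count for each other, so these intervals are too narrow. In all, 11 genes were the host of 2 or more broad peaks or their nearest gene within 100 kb, and in 9 of them every background was under 20. Il34, a ligand of the macrophage colony-stimulating factor receptor, held 3 within 110788850 to 110794318 on chromosome 8, with folds of 4.55 to 5.20. Plec, which encodes the cytolinker plectin, held 2 with folds of 9.20 and 12.8, and Rhof, a small GTPase gene, 2 of 839 and 1067 bp. Others were Ddit3, the stress-response factor CHOP, with 2 upstream of its start at 272 and 1550 bp, the nuclear receptor gene Rara, the lamin gene Lmna, the G protein subunit gene Gng7, and Rdm1. The summit lay in the middle one of 3 equal parts of the interval for 34.5% (29.0 to 40.5) of broad and 60.5% (58.9 to 62.1) of narrower peaks, a shape that width itself bears on.

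Promoters under broad and under narrower peaks were both richer in G, C and CpG than promoters at large. In all, 40 promoter windows of 33 genes overlapped a broad peak and another 519 of 473 genes a narrower one, of 21263 windows of 17492 protein-coding genes. The median GC content was 66.7% under broad and 65.7% under narrower peaks, against 56.3% over all windows. The ratio of observed to expected CpG was 0.6 or more in 33 of 40 windows (82.5%, 68.0 to 91.3), in 88.2% (85.2 to 90.7) under narrower peaks and in 47.7% of all. GGGCGG was found in 72.5% (57.2 to 83.9), 70.1% and 46.2%, and CCGGAA in 27.5% (16.1 to 42.8), 35.8% and 18.7%. TGACTCA was in 4 of 40 windows (10%, 3.96 to 23.1), in 6.36% and in 4.66%, and CACGTG in 12.5%, 12.1% and 7.84%. CCAAT was in 35.0%, 28.5% and 38.2%, GGAATG in 5%, 12.3% and 13.6%, TGACGTCA in 2.5%, 3.66% and 2.23%, and the CArG box in 2 of 40 (5%, 1.38 to 16.5), 0.58% and 1.52%. With 40 windows, some of them overlapping starts of 1 gene, the intervals of the broad set include the share under narrower peaks for 7 of these 8 motifs. The exception is the CArG box, found in 2 windows, 1 of them that of Arpc4 printed above. A match of letters is no measured site.

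Small RNA genes lay close to a minority of the broad peaks. The summits of 17 (6.59%, 4.15 to 10.3) were within 500 bp of one, against 4.09% (3.48 to 4.80) of narrower peaks, a difference of 2.5 points (-0.04 to 6.26), and 3.18 points (0.38 to 7.32) without high background. Of these 10 were tRNA genes, transcribed by RNA polymerase III, with folds from 5.85 to 11.3 and widths up to 930 bp. The summit 17874 bp from Osbp lay in n-TVtac1, the one 7671 bp from Dhx37 in n-TFgaa7, and that at the start of Agbl5 in n-TAagc15. Another 5 were snRNA genes, with folds of 2.67 to 5.40, and 2 were miRNA genes, Mir7671 near Irf1 and Mir199a-1 within Dnm2. A lncRNA gene lay within 2 kb of 46 broad summits (17.8%, 13.6 to 23.0), against 20.4% for narrower peaks. The nearest gene of any kind was a lncRNA gene for 24.0% against 24.5% (-0.45 points, -5.47 to 5.30). Without high background the direction turned, with 25.4% against 24.4% (1.02 points, -4.35 to 7.16).

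By chromosome, the share of peaks that were broad ran from 3.06% on chromosome 14 (3 of 98) to 11.0% on chromosome 9 (20 of 181), apart from 1 of 9 peaks on chromosome Y. On chromosome 9, 12 of the 20 were the group of high background. Chromosome 11 had the most, 29 of 368 (7.88%, 5.54 to 11.1). Chromosome 10 had 19 of 194 (9.79%, 6.36 to 14.8), and chromosome 19 had 14 of 137 (10.2%, 6.19 to 16.4). Chromosome 15 had 17 of 257 (6.61%, 4.17 to 10.3), and X had 5 of 54.

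Only 71 of 21774 protein-coding genes (0.326%) had the summit of a broad peak within 2 kb of an end, and 217 (0.997%) were the host gene of a broad peak or its nearest gene within 100 kb. Of the 1107 genes with a peak of any width at an end, 71 (6.41%) had a broad one, where 6.96% of the listed peaks were broad. In 23 gene lists, chosen with earlier results of these data known, 14 of 529 genes had a broad peak at an end (2.65%) and 27 were host or nearest genes (5.10%). Among the 112 list genes with any peak at an end, 14 (12.5%, 7.59 to 19.9) had a broad one. Because the lists were chosen with these data known, no excess over the 6.41% can be read from this. No list had more than 2 members with a broad peak at an end, and 10 had none.

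Of 20 circadian genes 2 had a broad peak at an end, Bhlhe40 and the clock repressor gene Per1 (663 bp, fold 6.55, 4.54 to 9.17), where the summit lay past the finish of the gene, in the tRNA gene n-TScga3. Of 20 Krüppel-like and SP factor genes, Klf10 had one at its end, and Klf9 and Klf3 (641 bp, 10.7, 8.49 to 13.3, at 45346 bp) were nearest genes. Psip1 and Kmt2d were the 2 of 20 genes of H3K4 methyltransferase complexes, while 6 of the 20 had a peak of some width there. The immediate early list had 1 of 30, the mRNA decay factor gene Zfp36 (650 bp, 8.67, 6.44 to 11.4), although 9 of its members had a peak of some width at an end. The C/EBP list had Ddit3 (736 bp, 8.51, 6.32 to 11.2, and the other peak given above), where Mbd6 was the nearest gene of any kind, and Cebpb, a factor of inflammation and fat cell formation, as nearest gene at 87055 bp.

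The MAP kinase feedback, TGF-beta, SRF and actin, and YAP/TEAD lists each had 1 member with a broad peak at an end. They were Dusp1, a MAP kinase phosphatase gene (612 bp, fold 3.67), Skil of the TGF-beta list, Zyx of the SRF and actin list, and Asap1 of the YAP/TEAD list (648 bp, 3.90). Vim, which encodes the intermediate filament protein vimentin, counted in both the matrix and the progenitor lists (602 bp, 7.33, 5.35 to 9.82). As host or nearest genes the YAP/TEAD list added Ankrd1 and the receptor kinase gene Axl, with 770 bp inside the gene (10.3, 7.99 to 13.0), so that 3 of 20 were named. The matrix list added the collagen gene Col1a2, with 920 bp at 15518 bp upstream (10.1, 7.67 to 13.0), and the protease inhibitor gene Timp2, with 793 bp inside the gene (6.69). The SOCS list had no member at an end and Socs5 as its single nearest gene, and the lipid list Ppara, a fatty-acid sensing nuclear receptor gene, with 1076 bp at 63154 bp (3.59). Nes, the progenitor filament gene, had 638 bp at 2596 bp from its finish (4.82).

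The translation list had the elongation factor gene Eef1a1 at its start (662 bp, 5.45, 3.68 to 7.79) and Eef1g as a nearest gene (900 bp, 4.48), and the splicing list Hnrnpu. The remodeller and acetylation list had only Chd2 as a nearest gene, and the histone list only H4c8 (674 bp, 8.22), where the summit lay in the tRNA gene n-TGgcc6. The oxygen response, sterol, heat shock and autophagy lists, of 30, 25, 20 and 24 genes, had no member as host or nearest gene, although 7, 2, 4 and 3 of their members had a peak of some width at an end. Neither the 30 neuronal genes nor the 16 markers of olfactory neurons and immune cells had a peak of any width at an end or a broad peak as host or nearest gene. A count of 0 in lists of this size does not tell a lower share from that of all genes.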

How the data were processed

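Alignment, duplicate handling and peak calling were the authors'. For these steps Bowtie2, Picard, MACS2 and mm10 are listed in the submitters' processing notes, while their settings and the peak threshold are not given in the sources read. The deposited list holds each interval and summit, the authors' fold (a ratio to background), −log10 p and −log10 q, and a score that was not used, with 1 list for 1 ChIP and 1 input library. Depth per library is not given; pileup and background were solved from the deposited fold and −log10 p, taking the fold as (pileup + 1)/(background + 1) and p as a Poisson tail, and reproduced p within 0.001 for 3694 of 3738 peaks and 245 of 258 broad ones; the nearest whole pileup was kept for the others. The width threshold of 600 bp is applied to the interval, whose lowest value in the list is 203 bp.

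Genes came from a RefSeq table of GRCm38.p6 (49595 of 49997 kept, on main chromosome sequences). Promoter sequences and strand came from its promoter table. Shares have Wilson and differences Newcombe 95% intervals; fold intervals are exact Poisson with the background fixed. Python 3.11.15, pandas 2.3.3 and scipy 1.17.1 were used. Promoters within annotated genes, which can hold untranslated sequence, were not printed. The windows of Jade1, Zyx, Rhoq and Rnf44, the widest of all, and that of Adcy7 (797 bp) thus gave way to the next. Named genes followed 1 rule. It took the 20 widest broad peaks at gene ends, the 10 widest elsewhere and the 5 of highest fold. It also took up to 4 widest per list, and those at the threshold. Genes with several broad peaks or small RNA genes, and the highest backgrounds, were named after their values were seen. The members and lists were chosen with earlier results of these data known. All 534 list entries matched a gene. Placement and pileups were tested on simulated data. The simulated backgrounds were all under 20 fragments, so pileups at higher backgrounds were not tested. Alternatives were other windows, widths, peak thresholds, gene sets and peaks left out.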

Additional observations from a re-analysis of the deposited data

Results flagged for a closer look

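Outside the comparisons by position, 20 further peaks of 600 bp or more lay on 1 unplaced sequence and were set aside because they have no chromosome. They were flagged as a signal above input in data the comparisons do not use. Their folds ran from 1.14 to 2.05, with a median of 1.57, over backgrounds of 2255 to 8931 fragments, and their widths from 600 to 1461 bp. What gives these peaks was not tested.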

How the results depend on the processing

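The share of broad peaks at gene ends was 16.3% with a 1 kb window and 34.1% with a 5 kb window, 17.3% with a width of 800 bp or more, 17.7% among peaks whose fold reached the 75th percentile (5.75), and 16.3% with gene starts only. The share of narrower peaks was 21.3% and 36.9% with those windows, 18% among peaks that reached the median −log10 q (8.26), 13.6% at that fold, and 19.6% with gene starts only. The number of genes with a broad peak at an end, 71, became 47 and 111 with those windows, 142 and 15 with widths of 500 and 800 bp, 19 at that fold, and 45 with gene starts only. Windows, widths and stricter lists change these by their construction, as they take in more or fewer peaks or ends. The other alternatives kept these shares within the interval of the main value and the count within 1.5 times. They were the whole interval in place of the summit, peaks of high background, small RNA genes or chromosomes 15 and X left out, and genes with a curated mRNA. The median pileup, 44, ran from 41 to 55. Of 42 alternative values of other shares 10 moved beyond the interval of the main value, and of 276 alternative list counts 45 moved by more than 1.5 times or from 0. No paired analysis was possible because there is 1 library of each kind, and leaving out a replicate was not possible for the same reason.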
